A study of Mus musculus with 24 samples.

Results

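The unfolded protein and integrated stress genes described here are 10 mouse genes: Hspa5, Sdf2l1, Pdia4, Dnajb9, Herpud1, Xbp1, Atf4, Ddit3, Trib3 and Asns. They were picked by gene symbol from the 14995 genes of the deposited tables, and their read counts were taken by Ensembl identifier. All 10 were in the tables. The filter on low counts kept 9 of them for testing, and Asns fell below it. Messenger RNA was measured by 3′ tag sequencing (QuantSeq, which reads about 1 fragment per transcript near the poly(A) tail) in 24 livers of mice that the series title calls obese, collected 20 weeks after surgery. The Sham group had sham surgery, the RYGB group had Roux-en-Y gastric bypass, an operation that leaves a small gastric pouch and joins it to the bowel further down, and the WM group was held by calorie restriction to the body weight of the RYGB mice. Each group has 8 libraries, which keep the sample numbers of the labels. Strain, sex, age, diet and feeding state at collection were not given in the sources used here, nor was it stated whether the WM mice had an operation. The labels do not say more about how the samples of a group are separate, so p-values measure only the spread between these samples.

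The endoplasmic reticulum (ER) folds secreted and membrane proteins, and hepatocytes, which secrete most plasma proteins, carry a heavy load of this work. When unfolded proteins gather in the ER, the sensors IRE1, PERK and ATF6 start the unfolded protein response. IRE1 splices Xbp1 messenger RNA, ATF6 is cut to release a transcription factor, and PERK phosphorylates the initiation factor eIF2α, which lowers translation in general but raises that of Atf4. Other eIF2α kinases answer to amino acid shortage, viral RNA or low heme, and this shared route through ATF4 is the integrated stress response. Tags at the 3′ end count messenger RNA. They do not show Xbp1 splicing, eIF2α phosphorylation, ATF4 translation or protein.

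Promoter sequence was looked at first, because these genes are textbook targets of short DNA motifs read by ATF6, XBP1 and ATF4. The RefSeq promoter table for GRCm38.p6 holds 1 promoter for each of the 10 genes, among 32851 promoters of 300 bases that run from 250 bases before to 50 after the start site. Both strands were searched. The ER stress element, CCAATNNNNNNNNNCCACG, was in 39 of all promoters (0.119%) and among the 10 genes in that of Hspa5. Its shorter relative, ER stress element II, spelled by the capitals in the first Herpud1 stretch with any base in the middle, was in 12 of all promoters (0.0365%) and among the 10 genes in that of Herpud1; the search for this motif was added after the sequences had been seen. The C/EBP-ATF response element, TGATGNAA, was in 1304 of all promoters (3.97%) and among the 10 genes in those of Herpud1, Asns and Trib3. The unfolded protein response element, TGACGTGG, was in 222 of all promoters (0.676%) and in 0 of the 10. The stretches below are shown because they hold the motifs found, in capitals, and are written 5′ to 3′ on the strand of the gene.
Hspa5, ER stress element, chr2:34772020-34772048, plus strand: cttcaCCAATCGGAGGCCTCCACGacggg
Herpud1, ER stress element II, chr8:94386368-94386396, plus strand: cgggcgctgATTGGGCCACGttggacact
Herpud1, C/EBP-ATF response element read on the opposite strand, chr8:94386307-94386334, plus strand: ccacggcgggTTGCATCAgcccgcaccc
Asns, C/EBP-ATF response element, chr6:7693215-7693242, minus strand: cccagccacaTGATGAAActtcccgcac
Trib3, C/EBP-ATF response element read on the opposite strand, chr2:152344029-152344056, minus strand: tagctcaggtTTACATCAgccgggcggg
The motif of Hspa5 begins 65 bases before the RefSeq start site, those of Herpud1 begin 52 and 112 bases before it, and that of Asns 23 bases before it. The motif of Trib3 begins 15 bases after the start site. In the GENCODE M21 annotation, the stretches of Hspa5 and Asns lie in exons of longer transcripts, that of Trib3 lies partly in an exon, and those of Herpud1 lie outside exons. These are matches of letters in 1 window per gene, and the windows of Xbp1, Atf4, Ddit3, Sdf2l1, Dnajb9 and Pdia4 held none of the letters searched.

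The libraries held 13659647 to 22766612 counted reads. Levels below are CPM, the reads of a gene as a rate over the reads of its library, scaled by TMM, which lines up the bulk of genes between libraries; a gene is called changed at an adjusted p under 0.05 in edgeR's quasi-likelihood test with Benjamini-Hochberg adjustment over 13121 genes. The groups also differed in other ways that were measured. A list of 9 hepatocyte markers had sums between 31890 and 74000 CPM in Sham, between 76980 and 138700 CPM in WM, and between 81410 and 138200 CPM in RYGB (exact permutation test, two-sided, adjusted p = 0.000622 for each against Sham over 36 tests). Alb, Ttr and Apoa1 had the highest levels in the sum, and Serpina1c had means of 1823 CPM in Sham, 7854 in WM and 5213 in RYGB. Cyp3a11 went the other way, with means of 1252 CPM in Sham, 155.5 in WM and 508.5 in RYGB. Tat stood at 94.7 CPM in Sham and 95.7 in WM. Summed markers of Kupffer cells, endothelial cells and T cells were higher in WM and RYGB than in Sham, and those of stellate cells, recruited macrophages and cholangiocytes were lower (exact permutation tests, adjusted p = 0.000622 to 0.0356); cholangiocyte markers also differed between RYGB and WM (41.7 and 28.3 CPM, adjusted p = 0.00473). Not every marker followed its sum. The cholangiocyte sum was carried by Spp1 and Sox9. Krt19 had means of 0.976 CPM in Sham, 2.75 in WM and 1.61 in RYGB, and Krt7 had 0.446, 0.985 and 0.547. Cd68 of recruited macrophages (4.36, 7.22 and 6.19 CPM) and Des of stellate cells (1.44, 2.48 and 1.92 CPM) were also lowest in Sham. Endothelial Lyve1 was highest in Sham (12.4, 11.4 and 11.2 CPM). The part of these marker shifts in the values of the 10 genes was not tested. A slope on log2 transcript length was taken of each gene's log2 level less its mean over the 24 libraries. It was 0.160 ± 0.0485 (SD, n = 8) in Sham, -0.0998 ± 0.0785 in WM and -0.0598 ± 0.0548 in RYGB. Only the differences between groups have meaning, since the gene means were removed. A list of 16 pancreatic acinar markers, without Cela1, which had reads in every liver, summed to 1332, 2881 and 2875 CPM in Sham 17, RYGB 18 and RYGB 19 and to between 0 and 26.0 CPM in the other 21 libraries. Acinar cells make much ER chaperone, so named genes were refitted without those 3 libraries in the comparison that named them. Where a call checked in this way ended, the value is given. Values of a named pathway gene in another comparison were not checked gene by gene. In bulk tissue, fewer cells of a type and less RNA per cell cannot be told apart.

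Against Sham, the WM livers had higher messenger RNA for 6 of the 9 genes tested and the RYGB livers for 4 of 9, and none of the 9 fell. Xbp1, Sdf2l1 and Hspa5 rose in both groups, Dnajb9, Herpud1 and Ddit3 passed the test in WM, and Atf4 passed it in RYGB. Over all genes tested, 23.7% were called in RYGB against Sham (12.7% higher and 11.0% lower) and 31.4% in WM against Sham (16.5% higher and 15.0% lower), so calls were common in both comparisons. The median log2 difference of the 9 genes was 0.33 in RYGB and 0.99 in WM, beside -0.015 and -0.0079 over all genes tested. Between RYGB and WM, Dnajb9 was the 1 gene of the 9 called, and it was lower in RYGB; 1.49% of all genes were called there, 0.434% lower and 1.06% higher. The comparisons of RYGB and WM with Sham share the same 8 Sham libraries.

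**Figure D1:**
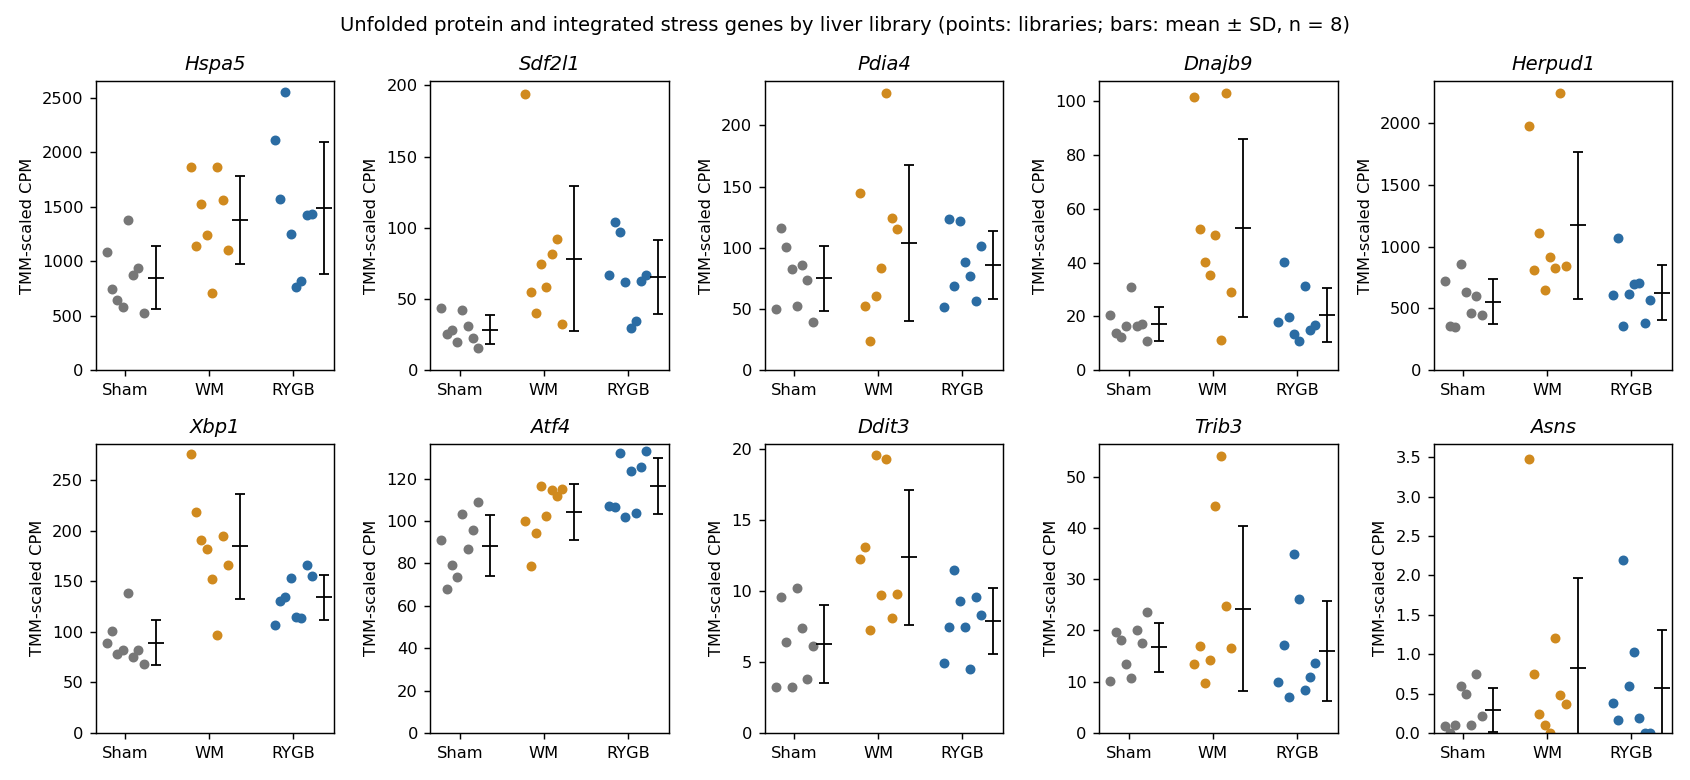
Level of each of the 10 genes in every library, in TMM-scaled CPM on an axis of its own from 0, for Sham, WM and RYGB (8 libraries each). Points are libraries and bars are the mean ± SD, with the low end stopped at 0. The groups overlap for all 10 genes, and WM 1 and WM 27 are the 2 highest points for Dnajb9 and Herpud1.

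**Figure D2:**
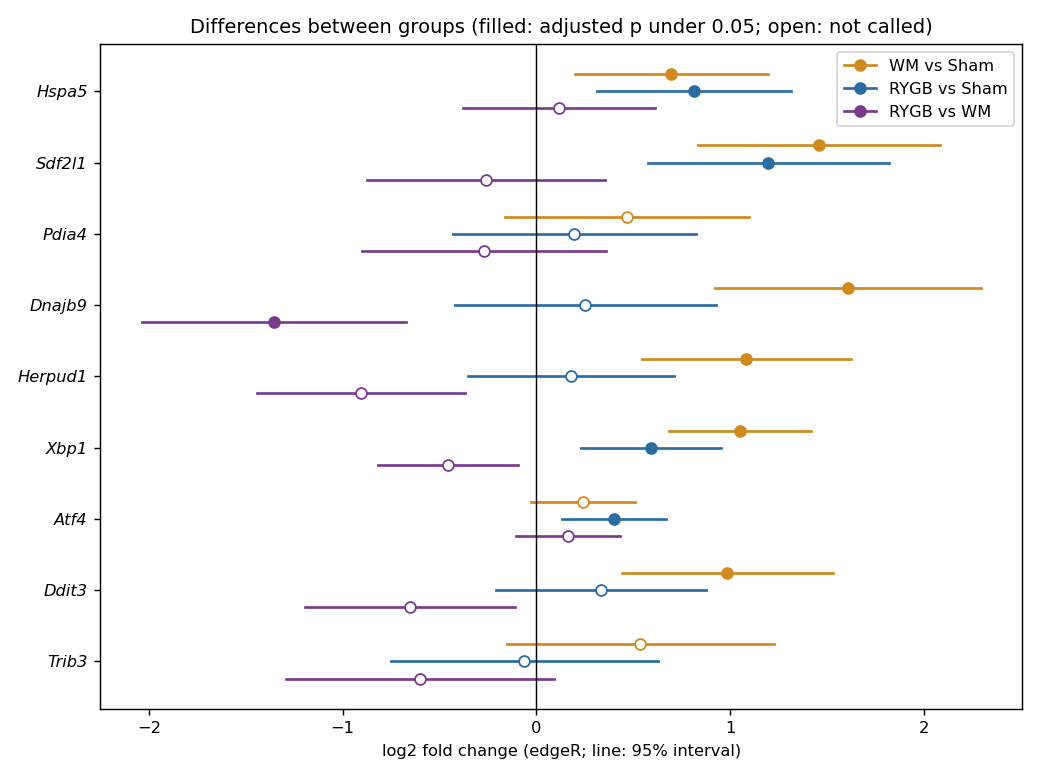
Log2 differences of the 9 tested genes in RYGB against Sham, WM against Sham and RYGB against WM, with 95% confidence intervals from edgeR's quasi-likelihood fit over 24 libraries. Filled points passed an adjusted p of 0.05. Dnajb9 stands at 0.25 in RYGB and 1.61 in WM against Sham.

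Hspa5 (chromosome 2, 34771970 to 34777547, GRCm38) encodes BiP, the most abundant ER chaperone, which also holds the ER sensors inactive until unfolded proteins draw it away. Its level ran from 528 through a median of 814 to 1384 CPM in Sham, from 705 through 1385 to 1871 CPM in WM, and from 768 through 1428 to 2555 CPM in RYGB. The groups overlapped: 5 RYGB and 4 WM libraries lay above the highest Sham library, Sham 14, and 7 of 8 in each group lay above the Sham median. Hspa5 rose in RYGB against Sham by 0.81 ± 0.24 (log2, SE; adjusted p = 0.0150) and in WM against Sham by 0.70 ± 0.24 (adjusted p = 0.0291). RYGB and WM were not told apart, with a difference of 0.12 and a 95% interval from -0.38 to 0.61 (adjusted p = 0.938). The WM call ended when any 1 of Sham 5, Sham 6, Sham 23, WM 1 or WM 25 was left out (log2 difference 0.62 to 0.65, adjusted p = 0.0551 to 0.0627).

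Sdf2l1 (chromosome 16, 17130138 to 17132383, GRCm38) encodes a small ER protein that works with BiP and ER J-domain proteins to keep folding clients soluble. Levels of Sdf2l1 ran from 15.9 through 26.6 to 43.9 CPM in Sham, from 32.3 through 66.2 to 194 CPM in WM, and from 29.5 through 64.7 to 104 CPM in RYGB. All 16 WM and RYGB libraries lay above the Sham median, and 6 in each group lay above the highest Sham library. Sdf2l1 rose by 1.20 ± 0.30 in RYGB against Sham (log2, SE; adjusted p = 0.00477) and by 1.46 ± 0.31 in WM against Sham (adjusted p = 0.000598), and the interval for RYGB against WM was -0.87 to 0.35. It was the 1 gene of the 10 called in RYGB against Sham with library totals as the only scaling.

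Pdia4 (chromosome 6, 47796141 to 47813430, GRCm38) encodes ERp72, an ER enzyme that forms and rearranges disulfide bonds. For Pdia4 the libraries ran from 39.4 through 78.2 to 116 CPM in Sham, from 24.1 through 99.3 to 226 CPM in WM, and from 51.9 through 82.5 to 124 CPM in RYGB. WM held both the lowest and the highest of the 24 libraries, and the groups overlapped over most of their range. The log2 difference was 0.20 ± 0.31 (SE) in RYGB and 0.47 ± 0.31 in WM against Sham, with adjusted p of 0.689 and 0.257 in edgeR's test. A change in Pdia4 was therefore not detected, and whether Pdia4 differed from Hspa5 in its response was not tested.

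Dnajb9 (chromosome 12, 44205559 to 44210326, GRCm38) encodes ERdj4, a J-domain partner of BiP that is a well known target of XBP1 and aids the removal of misfolded ER proteins. Dnajb9 ran from 10.7 through 16.5 to 30.9 CPM in Sham, from 11.1 through 45.2 to 103 CPM in WM, and from 10.8 through 17.5 to 40.3 CPM in RYGB. WM 1 and WM 27 were far above the rest at 102 and 103 CPM, while WM 25, at 11.1 CPM, lay with the lowest Sham libraries. Dnajb9 rose by 1.61 ± 0.33 in WM against Sham (log2, SE; adjusted p = 0.000546) and stood at 0.25 ± 0.33 in RYGB against Sham (adjusted p = 0.621). In RYGB against WM it was lower by a log2 difference of -1.36 ± 0.33 (adjusted p = 0.0285), a ratio of 0.391. All 8 RYGB libraries lay below the WM median, and 4 WM libraries lay above the highest RYGB library.

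That RYGB against WM call for Dnajb9 did not hold everywhere. It ended without WM 1 (log2 difference -1.15, adjusted p = 0.0926), without WM 27 (-1.15, adjusted p = 0.0973), without any 1 of RYGB 10, 15, 18, 19, 28 or 29 (adjusted p = 0.0533 to 0.0640), and without the 3 libraries with acinar transcripts (-1.17, adjusted p = 0.134). In those fits the difference stayed between -1.35 and -1.15.

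Herpud1 (chromosome 8, 94386438 to 94395377, GRCm38) encodes an ER membrane protein that helps assemble the complex for ER-associated degradation, which sends misfolded proteins to the proteasome. The Herpud1 level ran from 349 through 529.8 to 859.9 CPM in Sham, from 648 through 881 to 2244 CPM in WM, and from 354.5 through 615 to 1072 CPM in RYGB. All 8 WM libraries lay above the Sham median, with WM 1 at 1974 and WM 27 at 2244 CPM highest of all, as for Dnajb9. Herpud1 rose by 1.08 ± 0.26 in WM against Sham (log2, SE; adjusted p = 0.00236) and stood at 0.18 ± 0.26 in RYGB against Sham (adjusted p = 0.664). RYGB against WM gave -0.90 ± 0.26, which missed the threshold (adjusted p = 0.0821). That contrast passed without WM 13 (-0.99, adjusted p = 0.0493) and without RYGB 11 (-1.06, adjusted p = 0.0332), and it passed in DESeq2 (-0.91, adjusted p = 0.0284).

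Xbp1 (chromosome 11, 5520659 to 5525893, GRCm38) encodes the transcription factor that IRE1 activates by splicing, which drives genes of folding, degradation and lipid synthesis; the counts do not separate spliced from unspliced messenger RNA. Xbp1 levels went from 68.0 through 81.9 to 139 CPM in Sham, from 96.5 through 186 to 276 CPM in WM, and from 107 through 132 to 167 CPM in RYGB. All 16 WM and RYGB libraries lay above the Sham median, and 7 WM and 3 RYGB libraries lay above the highest Sham library, Sham 14. Xbp1 rose by 1.05 ± 0.18 in WM against Sham (log2, SE; adjusted p = 5.5e-05), which was the smallest p of the 9 genes in that comparison. It rose by 0.59 ± 0.18 in RYGB against Sham (adjusted p = 0.0148). All 8 RYGB libraries lay below the WM median, but RYGB against WM, at -0.46 ± 0.18, was not called (adjusted p = 0.271). Without the 3 libraries with acinar transcripts the RYGB against Sham value was 0.58, just past the threshold (adjusted p = 0.0510).

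Atf4 (chromosome 15, 80255184 to 80257541, GRCm38) encodes the transcription factor at the centre of the integrated stress response, which raises genes of amino acid supply; it is controlled mostly at translation, which was not measured. For Atf4 the range was from 68.0 through 88.9 to 109 CPM in Sham, from 78.8 through 107 to 117 CPM in WM, and from 102 through 115 to 133 CPM in RYGB. All 8 RYGB libraries lay above the Sham median, and 4 of 8 in each of RYGB and WM lay above the highest Sham library. Atf4 rose by 0.40 ± 0.13 in RYGB against Sham (log2, SE; adjusted p = 0.0251), the smallest rise of the 4 called genes, and stood at 0.24 ± 0.13 in WM against Sham (adjusted p = 0.167). The RYGB call ended without any 1 of Sham 5, Sham 6, RYGB 15 or RYGB 29 (log2 difference 0.37 to 0.38, adjusted p = 0.0514 to 0.0539).

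Ddit3 (chromosome 10, 127290774 to 127296288, GRCm38) encodes CHOP, a factor downstream of ATF4 that is linked to cell death under lasting stress. Ddit3 went from 3.24 through 6.26 to 10.2 CPM in Sham, from 7.26 through 11.0 to 19.6 CPM in WM, and from 4.51 through 7.91 to 11.4 CPM in RYGB. All 8 WM libraries lay above the Sham median and 4 lay above the highest Sham library. Ddit3 rose by 0.99 ± 0.27 in WM against Sham (log2, SE; adjusted p = 0.00558) and stood at 0.33 in RYGB against Sham (adjusted p = 0.383).

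Trib3 (chromosome 2, 152337422 to 152344032, GRCm38) encodes a pseudokinase that is induced by ATF4 and CHOP and binds AKT and ATF4. Trib3 levels went from 10.1 through 17.9 to 23.6 CPM in Sham, from 9.76 through 16.8 to 54.1 CPM in WM, and from 6.92 through 12.2 to 35.0 CPM in RYGB. WM 20 and WM 25 stood apart within WM at 44.3 and 54.1 CPM. The log2 difference was -0.064 ± 0.34 (SE) in RYGB and 0.54 ± 0.34 in WM against Sham, with adjusted p of 0.916 and 0.232 in edgeR's test. In RYGB the highest values were in RYGB 18 (35.0 CPM) and RYGB 19 (26.2 CPM), the same libraries that held acinar transcripts. Without those and Sham 17, Trib3 stood at -0.58 in RYGB against Sham (adjusted p = 0.258) and at -1.12 in RYGB against WM (adjusted p = 0.112), beside -0.60 (adjusted p = 0.535) with all libraries. The part of those transcripts in the Trib3 values was not tested.

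Asns (chromosome 6, 7675169 to 7693254, GRCm38) encodes asparagine synthetase, a widely used readout of ATF4 activity. It was close to undetected, with at most 15 reads in a Sham library, 43 in a WM library and 35 in a RYGB library, and 1 Sham, 1 WM and 2 RYGB libraries at 0 reads. The median was 0.161 CPM in Sham, 0.429 CPM in WM and 0.284 CPM in RYGB. With no filter on low counts, the log2 difference was 0.95 ± 0.90 (SE) in RYGB and 1.46 ± 0.90 in WM against Sham, with adjusted p of 0.476 and 0.228 in edgeR's test. DESeq2 gave adjusted p of 0.450 and 0.175, so a difference in Asns was not detected.

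The calls against Sham depended on whether libraries were scaled by more than their totals. RLE scaling in place of TMM left 4 genes called in RYGB and 6 in WM, and so did DESeq2. With library totals in place of TMM, the median of all genes moved to -0.36 in RYGB against Sham and to -0.33 in WM against Sham, and the median of the 9 genes moved to -0.0025 and 0.67. The same scaling turned the split of all called genes from 1666 higher and 1443 lower to 754 higher and 3534 lower in RYGB against Sham, and from 2161 higher and 1964 lower to 1049 higher and 3637 lower in WM against Sham. Under it Hspa5 stood at 0.43 (adjusted p = 0.203), Xbp1 at 0.24 (adjusted p = 0.361) and Atf4 at 0.038 (adjusted p = 0.880) in RYGB, and Hspa5 at 0.34 (adjusted p = 0.312) in WM. Among genes that had no call, Herpud1, Dnajb9, Pdia4 and Ddit3 then stood below 0 in RYGB against Sham, at -0.18, -0.10, -0.14 and -0.0025, and Atf4 at -0.11 in WM against Sham.

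The slope on transcript length, of levels less each gene's mean, also differed between Sham and the other groups, as given above. The longest transcripts of the 10 genes run from 969 bp (Ddit3) to 3672 bp (Hspa5), and all but Hspa5 are under the median of tested genes, 3229 bp. After smooth trends on length and GC content were removed from each library, an alternative chosen after seeing the data, Hspa5 was the 1 gene of the 9 still called in RYGB against Sham. Sdf2l1 then stood at 0.83 (adjusted p = 0.0531), Xbp1 at 0.44 (adjusted p = 0.105) and Atf4 at 0.25 (adjusted p = 0.231). In WM against Sham 5 of 9 were called, and Ddit3 stood at 0.71 (adjusted p = 0.0568). The part of length in the values of the other genes was not tested.

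**Figure D3:**
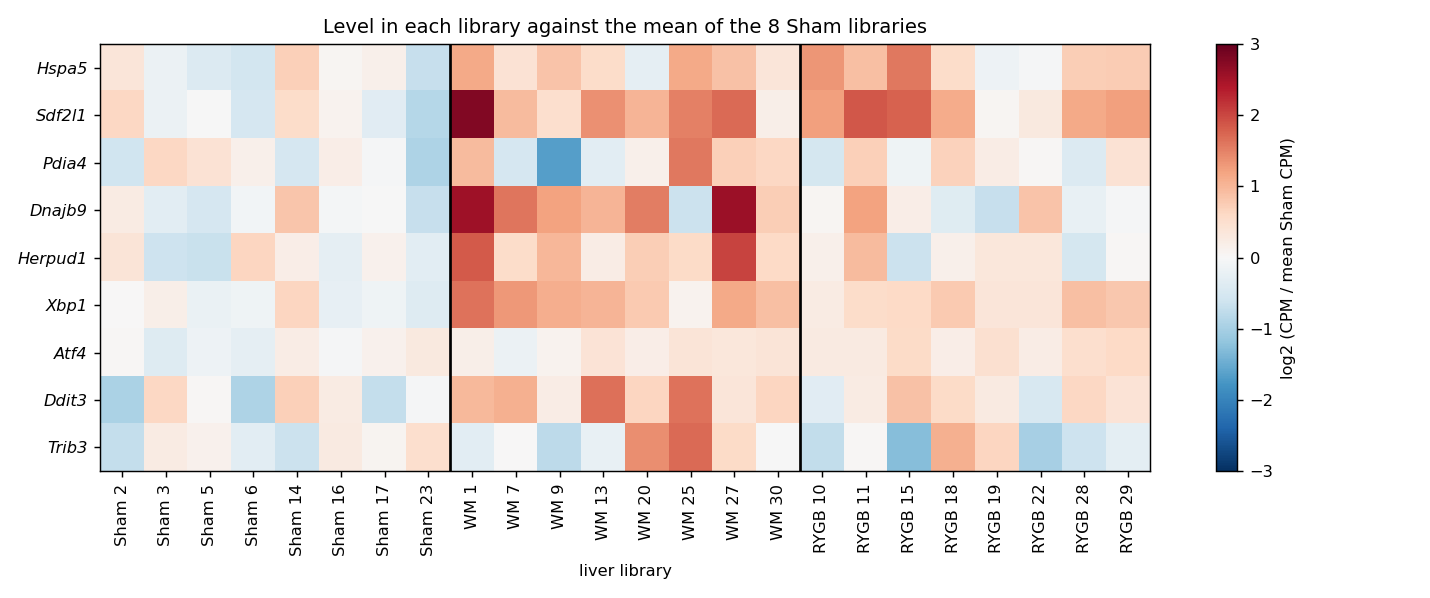
Level of each of the 9 tested genes (down the side) in each of the 24 libraries (along the bottom, by group), as log2 of CPM over the mean CPM of the 8 Sham libraries, with colour from -3 to 3. Sdf2l1 and Xbp1 are raised in most WM and RYGB libraries, and Dnajb9 and Herpud1 are strongest in WM 1 and WM 27.

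Within WM, 1 library was high for most of the genes: WM 1 was highest for Sdf2l1, Xbp1 and Asns, and the second highest for Hspa5, Pdia4, Dnajb9 and Herpud1. WM 25 was highest of WM for Hspa5, Pdia4 and Trib3 but lowest of WM for Xbp1 and Dnajb9. In Sham, Sham 14 was highest for Hspa5, Xbp1, Ddit3 and Dnajb9. RYGB 19, which held acinar transcripts, was lowest of RYGB for Hspa5, Sdf2l1 and Dnajb9, at 768, 29.5 and 10.8 CPM. Markers of plasma cells and B cells, which also make much ER chaperone, had sums between 11.3 and 56.2 CPM in Sham, between 12.0 and 491 CPM in WM, and between 32.6 and 436.5 CPM in RYGB (RYGB against Sham, exact permutation test, two-sided, p = 0.00404, adjusted p = 0.0104). The part of plasma cells in the values of the 10 genes was not tested.

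Relations between genes were tested within each group, over 7 pairs and 3 groups (21 tests) on log2(CPM + 0.1), with exact two-sided permutation of pairings. Of the 21 Pearson tests, 4 had an exact p under 0.05 and 1 had an adjusted p under 0.05. In Sham, Hspa5 and Dnajb9 moved together across the 8 libraries (Pearson r = 0.90, exact p = 0.00198, adjusted p = 0.0417; Spearman rho = 0.93, exact p = 0.00223, adjusted p = 0.0234). Without Sham 14 and Sham 23, which lie farthest from the Hspa5 median, r was 0.71. In WM the same pair gave r of -0.049, which was 0.77 without WM 20 and WM 25, so that value rests on those libraries. In RYGB it gave 0.15, and -0.24 without RYGB 15 and RYGB 19. Hspa5 and Sdf2l1 gave r of 0.85 in Sham (exact p = 0.00866, adjusted p = 0.0606), 0.52 in WM (exact p = 0.185, adjusted p = 0.778; 0.75 without WM 20 and WM 25) and 0.87 in RYGB (exact p = 0.00563, adjusted p = 0.0591). For RYGB the rank relation passed the adjustment (rho = 0.93, exact permutation p = 0.00223, adjusted p = 0.0234), and r was 0.74 without RYGB 15 and RYGB 19. For Sham the rank relation did not pass (rho = 0.81, exact permutation p = 0.0218, adjusted p = 0.1525), and r was 0.68 without Sham 14 and Sham 23. Hspa5 and Herpud1 gave r of 0.31 in Sham, 0.45 in WM and -0.42 in RYGB, none with an adjusted p under the threshold; without WM 20 and WM 25 the WM value was 0.84. The remaining pairs had no adjusted p under the threshold. In Sham, WM and RYGB, r was -0.19, 0.29 and -0.31 for Hspa5 and Pdia4. It was 0.44, -0.16 and -0.029 for Atf4 and Asns, and -0.27, -0.12 and 0.076 for Trib3 and Asns. Hspa5 and Asns gave 0.13, 0.78 (exact permutation p = 0.0225, adjusted p = 0.118) and 0.16, and the WM value was 0.56 without WM 20 and WM 25. Asns had few reads. Whether r differed between groups was not tested.

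**Figure D4:**
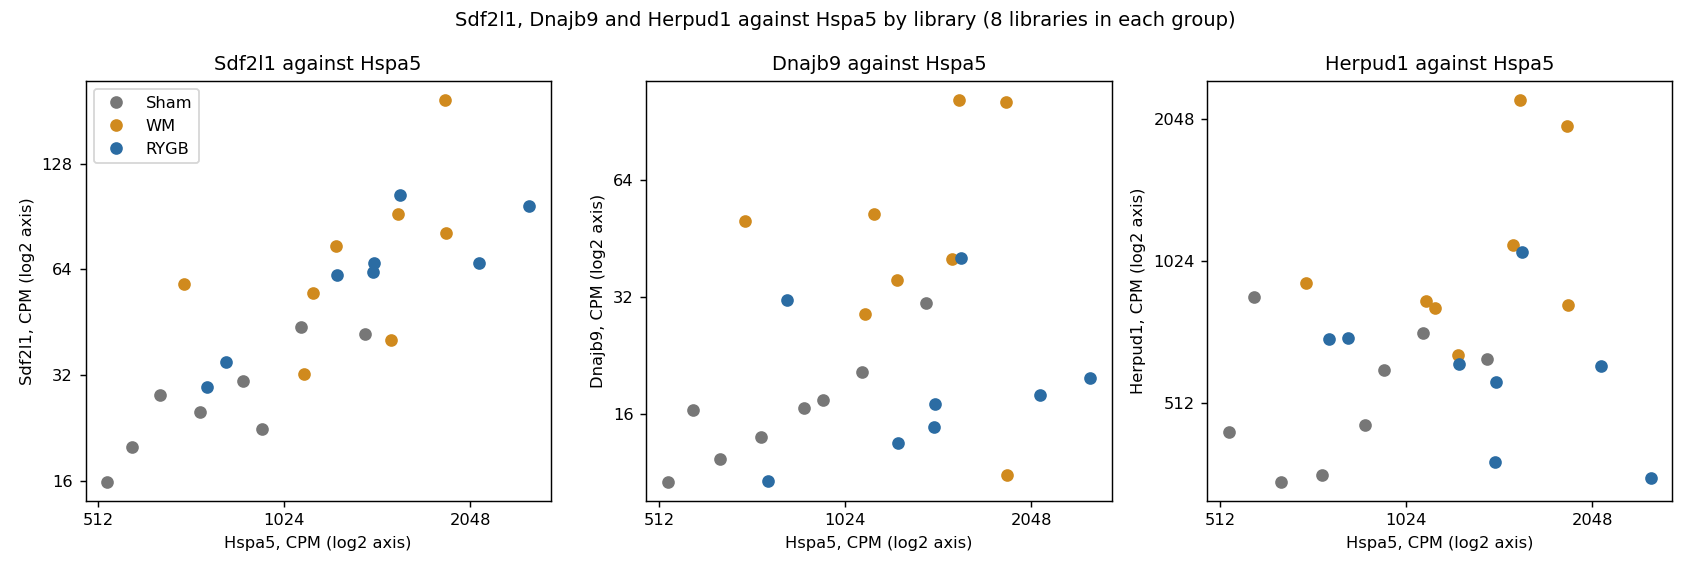
Sdf2l1, Dnajb9 and Herpud1 against Hspa5 by library, both axes in CPM on a log scale, with 8 libraries in each of Sham, WM and RYGB. For Sdf2l1, Pearson r is 0.85 in Sham, 0.52 in WM (0.75 without WM 20 and WM 25) and 0.87 in RYGB. None of these 3 values of r passed the adjustment. Dnajb9 rises with Hspa5 in Sham (r = 0.90). In WM the Dnajb9 value is -0.049 with all libraries and 0.77 without WM 20 and WM 25.

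Among 8383 genes with a mean of at least 5 CPM, those most like Hspa5 across the 24 libraries, by Pearson r of log2 CPM less group means, were Dnajb11 (0.885), Creld2 (0.840), Pdia6 (0.767), Sdf2l1 (0.717) and Tbccd1 (0.710). Dnajb11 and Pdia6 encode an ER J-domain partner of BiP and an ER disulfide isomerase. The other genes of the 10 stood lower on that scale, with Asns at 0.36, Xbp1 at 0.27, Ddit3 and Atf4 at 0.23, Dnajb9 at 0.20, Herpud1 at 0.093, Pdia4 at -0.0020 and Trib3 at -0.39. For Asns the most alike were Ncbp1 (0.732), Golgb1 (0.650), Eef2k (0.643), Cpeb1 (0.601) and Fam102a (0.588), from few Asns reads. These r are descriptions over libraries that share depth and tissue makeup.

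The 6 lists of other genes of these pathways hold 86 genes, of which 82 were tested. In RYGB against Sham 9 rose and 10 fell (23.2% of those tested, beside 23.7% of all genes), and in WM against Sham 9 rose and 10 fell (23.2%, beside 31.4%). In RYGB against WM 2 rose and 1 fell (3.66%, beside 1.49%). The lists were written with earlier results of these data known.

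**Figure D5:**
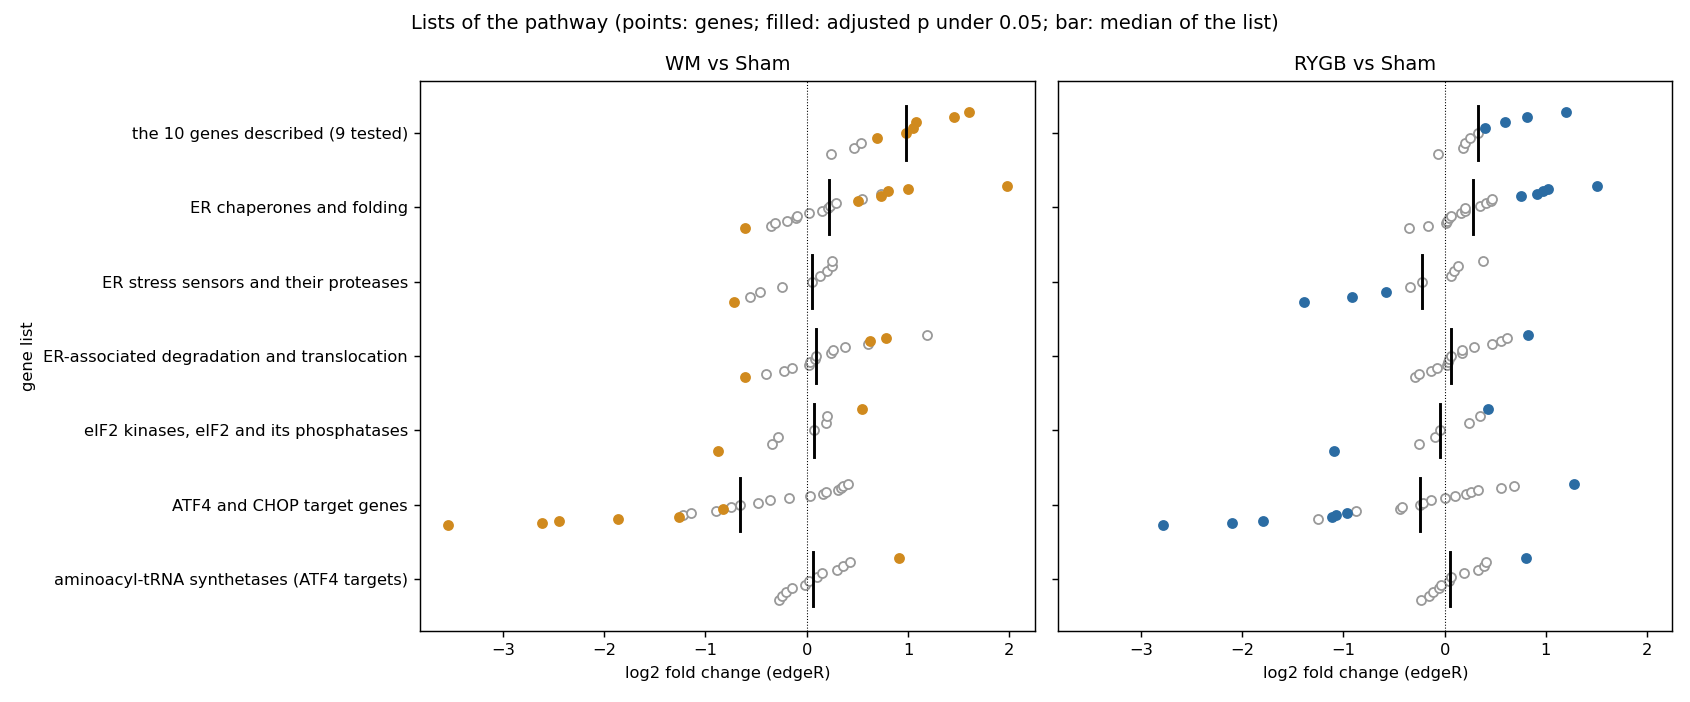
Log2 differences from edgeR (horizontal axis) of the tested genes of the 6 pathway lists and of the 9 tested genes described above (vertical axis), in WM against Sham and in RYGB against Sham; each point is a gene, filled at an adjusted p under 0.05, and the bar is the list's median. ER chaperones have 5 filled points above 0 in each comparison, and the ATF4 and CHOP targets have 6 below 0 in each.

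Of 18 other ER chaperones and folding enzymes, 5 rose and none fell in RYGB against Sham, and 5 rose and 1 fell in WM against Sham, with median log2 differences of 0.28 and 0.22. Beside these counts, 12.7% of all genes were called higher and 11.0% lower in RYGB, and 16.5% higher and 15.0% lower in WM. Ppib, the ER cyclophilin B, rose by 0.91 in RYGB (adjusted p = 0.00120) and by 1.01 in WM (adjusted p = 0.000298). Creld2, an ER stress-induced disulfide isomerase, rose by 1.51 in RYGB (adjusted p = 0.0156) and by 1.97 in WM (adjusted p = 0.00167), from a Sham mean of 16.8 ± 13.2 CPM (SD, n = 8). Dnajb11 rose by 0.75 and 0.80, from 50.6 ± 13.6 CPM in Sham. Ero1b, which reoxidises disulfide isomerase, rose by 1.02 in RYGB (adjusted p = 0.00225) and stood at 0.55 in WM (adjusted p = 0.0756). Fkbp11 rose by 0.97 in RYGB (adjusted p = 0.00260) and by 0.73 in WM (adjusted p = 0.0151). The 1 that fell in WM was Pdia3, at -0.61 (edgeR adjusted p = 0.00847), with means of 474 CPM in Sham and 311 CPM in WM. With library totals, 4 of the 18 rose and 1 fell in RYGB (median -0.076), and 2 rose and 4 fell in WM (median -0.12). Over all genes, that scaling gave 754 higher and 3534 lower in RYGB, and 1049 higher and 3637 lower in WM. Dnajb11 lost its call in WM (0.45, adjusted p = 0.125). Ppib and Creld2 kept theirs, so the 2 that rose in WM did not include Fkbp11. In RYGB, Ppib, Ero1b and Fkbp11 kept their calls, and Creld2 and Dnajb11 were not followed singly. Without the 3 libraries with acinar transcripts, 4 rose and 1 fell in WM.

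Of 9 sensors and their proteases, none rose and 3 fell in RYGB against Sham, beside 11.0% of all genes called lower. In WM against Sham 1 fell, beside 15.0% of all genes. The counts moved with the processing. With library totals, 5 fell in RYGB and 4 in WM, beside 3534 and 3637 of all genes called lower under that scaling. With length and GC trends removed, 2 fell in RYGB and 1 rose in WM. Without the 3 libraries with acinar transcripts, 1 fell in RYGB. Eif2ak3, which encodes PERK, fell from 14.1 ± 3.60 CPM (SD, n = 8) in Sham to 5.41 ± 2.65 CPM in RYGB, a log2 difference of -1.39 (edgeR adjusted p = 0.000186), and stood at -0.56 in WM (adjusted p = 0.0810). Atf6 fell by 0.58 in RYGB (adjusted p = 0.0163) and by 0.72 in WM (adjusted p = 0.00275). Creb3l2, an ATF6-like factor, fell by 0.92 in RYGB against Sham (adjusted p = 0.0106) and by 1.05 in RYGB against WM (adjusted p = 0.0315), and stood at 0.13 in WM against Sham (adjusted p = 0.732). Without the 3 libraries with acinar transcripts, Creb3l2 stood at -0.72 (adjusted p = 0.0864) and Atf6 at -0.55 (adjusted p = 0.0696) in RYGB against Sham. With length and GC trends removed, Atf6 stood at -0.24 (adjusted p = 0.275) in RYGB and -0.33 (adjusted p = 0.108) in WM. Creb3l2 in RYGB against WM ended with any 1 of WM 1, 20, 27 or RYGB 10, 15, 18, 19, 28, 29 left out (adjusted p = 0.0519 to 0.0988), without the 3 libraries with acinar transcripts (-0.94, adjusted p = 0.117), and with the compared groups alone (adjusted p = 0.0924).

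Of 15 genes of ER-associated degradation and protein entry into the ER, 1 rose in RYGB against Sham, and 2 rose and 1 fell in WM against Sham. Among all genes, 12.7% were called higher in RYGB, and 16.5% higher and 15.0% lower in WM. Sec61b, a subunit of the channel for entry, rose by 0.82 in RYGB (adjusted p = 0.00328) and by 0.79 in WM (adjusted p = 0.00341). Selenos rose by 0.63 in WM (adjusted p = 0.0112) and stood at 0.47 in RYGB (adjusted p = 0.0662). Ssr1 fell by 0.61 in WM (adjusted p = 0.0117) and stood at -0.25 in RYGB (adjusted p = 0.331). With length and GC trends removed, Sec61b stood at 0.37 and 0.21 (adjusted p = 0.254 and 0.513), Selenos at 0.30 (adjusted p = 0.223) and Ssr1 at -0.095 (adjusted p = 0.632). With library totals, none of the 15 rose and 2 fell in each group. Over all genes, that scaling gave 754 higher and 3534 lower in RYGB, and 1049 higher and 3637 lower in WM. Under it Sec61b stood at 0.47 in both groups (adjusted p = 0.0873 in RYGB and 0.0871 in WM) and Selenos at 0.27 (adjusted p = 0.314).

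Of 7 genes for eIF2 kinases, eIF2B and eIF2 phosphatases, 1 rose and 1 fell in each comparison with Sham. The shares of all genes were 12.7% higher and 11.0% lower in RYGB, and 16.5% higher and 15.0% lower in WM. Eif2ak2, the kinase PKR that answers to double-stranded RNA, fell by 1.10 in RYGB (adjusted p = 0.00158) and by 0.88 in WM (adjusted p = 0.00660). Eif2b1, a subunit of the exchange factor for eIF2, rose by 0.42 in RYGB (adjusted p = 0.0380) and by 0.55 in WM (adjusted p = 0.00601). The RYGB call for Eif2b1 ended without any 1 of Sham 2, 5, 16, 17 or RYGB 10, 15, 19, 28, 29 (adjusted p = 0.0517 to 0.0865). In RYGB it also ended in limma-trend (0.39, adjusted p = 0.0616) and with length and GC trends removed (0.27, adjusted p = 0.151). With library totals, none of the 7 rose, 1 fell in RYGB and 3 fell in WM. Over all genes, that scaling gave 754 higher and 3534 lower in RYGB, and 1049 higher and 3637 lower in WM. Under it Eif2b1 stood at 0.085 in RYGB (adjusted p = 0.728) and at 0.24 in WM (adjusted p = 0.266).

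Of 21 tested ATF4 and CHOP target genes, 1 rose and 6 fell in RYGB against Sham, and 6 fell and none rose in WM against Sham, with median log2 differences of -0.25 and -0.66, beside 11.0% and 15.0% of all genes called lower. Over the alternatives other than leaving out 1 library, 6 to 10 fell in RYGB and 5 to 12 in WM. The number was highest with library totals, where 3534 of all genes were called lower in RYGB and 3637 in WM. In the main fit 1443 and 1964 of all genes were called lower. In limma-voom, 2 rose and 11 fell in WM. Fgf21, a liver hormone of fasting and stress, fell from 5.41 ± 1.47 CPM (SD, n = 8) in Sham to 1.26 ± 0.572 in RYGB and 0.983 ± 0.687 in WM (log2 differences -2.10 and -2.45, adjusted p = 0.000349 and 4.7e-05). Gdf15, a stress hormone, fell from 58.3 ± 15.3 CPM in Sham to 16.0 ± 8.51 CPM in WM (-1.86, adjusted p = 0.000116) and stood at -0.87 in RYGB (adjusted p = 0.0516). Atf3, a stress-induced transcription factor, fell by 1.79 in RYGB (adjusted p = 0.00563) and fell by 2.61 in WM (adjusted p = 0.000154). The death receptor gene Tnfrsf10b fell by 2.79 in RYGB and fell by 3.54 in WM, from a Sham mean of 1.68 ± 0.693 CPM. Cth, which makes cysteine from cystathionine, rose by 1.28 in RYGB against Sham (adjusted p = 0.000115), from 187 ± 75.8 to 454 ± 149 CPM, and stood at 0.36 in WM against Sham (adjusted p = 0.225). In RYGB against WM, Cth rose by 0.93 (adjusted p = 0.0235), a call lost without WM 1, RYGB 10 or RYGB 11 (adjusted p = 0.0509 to 0.0613) and with library totals (0.90, adjusted p = 0.0736).

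Of 12 aminoacyl-tRNA synthetases, which load amino acids onto tRNA and are ATF4 targets, 1 rose in each comparison. Over all genes, 12.7% were called higher in RYGB and 16.5% in WM against Sham, and 1.06% in RYGB against WM. Mars1, for methionine, rose by 0.80 in RYGB (adjusted p = 0.00573) and by 0.91 in WM (adjusted p = 0.00147) against Sham; with library totals the RYGB value was 0.46 (adjusted p = 0.0936). Tars, for threonine, rose by 0.61 in RYGB against WM (adjusted p = 0.0418), and 11 of the 16 fits that left out 1 library gave no call (adjusted p = 0.0539 to 0.0982). The Tars call also ended with library totals (adjusted p = 0.173) and with the compared groups alone (adjusted p = 0.0811). Against Sham, Tars stood at 0.33 in RYGB (adjusted p = 0.130) and at -0.28 in WM (adjusted p = 0.178). With library totals, 2 of the 12 synthetases fell and none rose in RYGB against Sham, and 4 fell and 1 rose in WM against Sham. Over all genes, that scaling gave 754 higher and 3534 lower in RYGB, and 1049 higher and 3637 lower in WM.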

How the data were processed

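Read counts per gene are the authors' deposited raw counts for 24 libraries; the second deposited table holds the authors' normalized signal, which equals the raw count divided by 1 constant per library. The submitters' processing notes name R 4.1.2 and DESeq2 1.34; aligner, counter, build, annotation and strand were not given in the sources used here. QuantSeq libraries were read for 50 bp, per the labels' protocols. The 1652 genes without a symbol were named by Ensembl identifier from GENCODE M21 (GRCm38), which named 1616; 36 stayed unnamed. Member coordinates come from GENCODE M21 and promoters from the RefSeq table for GRCm38.p6.

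Counts were tested with edgeR 4.0.16 in R 4.3.3 (filterByExpr, TMM, quasi-likelihood fit over all 24 libraries, Benjamini-Hochberg over 13121 genes, threshold 0.05); the common biological coefficient of variation was 0.398. Alternatives were DESeq2 1.42.0, limma 3.58.1 (voom with quality weights; trend on log2 of the normalized values plus 1), RLE scaling, library totals, no filter, at least 1 CPM in 8 libraries, the compared groups alone, each library left out, no Sham 17, RYGB 18 and RYGB 19, and, chosen after seeing the data, trends on GC content and length removed with mgcv 1.9.3. The edgeR fit was run on simulated counts with known changes, and the other steps were not tested in this way. No pair of libraries of a group was a duplicate: chi-square per degree of freedom was 24.9 to 540.2 over 84 pairs.

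Named were all 10 members, in each pathway list the 3 called genes with the smallest p per comparison, and the 5 genes most like Hspa5 and Asns. Values of some genes so named were also given for another comparison. Pdia3 was added as the chaperone that fell, and its call was not followed through the alternatives. Members and lists were chosen with earlier results of these data known.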

Additional observations from a re-analysis of the deposited data

Results flagged for a closer look

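Within a group of 8, a library was singled out when the gap between it and the nearest other library was more than 0.526 of the range of the group. Chance meets this rule in about 1 in 20 groups where values follow a normal distribution. Whether these CPM values, used without a log, follow it was not tested. Of 30 groups of gene levels, 4 met it. Xbp1 was 138.9 CPM in Sham 14, and the next Sham library had 101 CPM (gap 0.532 of the range). Sdf2l1 was 194.1 CPM in WM 1, with the next WM library at 92.2 CPM (0.630). Asns was 3.484 CPM in WM 1, with the next at 1.21 CPM (0.653), and 2.2 CPM in RYGB 15, with the next at 1.02 CPM (0.535). The Asns values rest on at most 43 reads in a library.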

How the results depend on the processing

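No paired analysis was possible because the groups share no replicate numbers in the labels. No result changed direction while called. In RYGB against Sham, 4 of the tested genes of interest were called, 1 with library totals, 1 with length and GC trends removed, and 3 to 4 with 1 library left out; over all genes, 3109 were called, 5018 by limma-voom and 2648 to 3222 with 1 library left out. In WM against Sham 6 were called (5 to 6 with 1 library left out), and over all genes 4125 (3645 to 4299). In RYGB against WM 1 was called, 0 with the compared groups alone, 0 by limma-trend, 0 without Sham 17, RYGB 18 and RYGB 19, 2 by DESeq2, 2 by limma-voom and 0 to 2 with 1 library left out. Over all genes 196 were called there, 121 with the compared groups alone, 361 by DESeq2, 340 with length and GC trends removed and 136 to 257 with 1 library left out. Where a count moved, the cause was not tested. Asns had at most 43 reads in a library and fell below the filter on low counts.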
